A study of Mus musculus with 8 samples.

Results

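Activins and the genes that receive or restrain them were examined in brown adipose tissue (BAT) of HFD-fed mice that lack Ox1R in serotonin transporter (SERT) expressing cells. The group holds 10 of the 44674 genes in the table, chosen by name. It comprises the activin subunit genes *Inhba* and *Inhbb*, the inhibin subunit gene *Inha*, the related ligand gene *Mstn*, the antagonist genes *Fst* and *Fstl3*, and the receptor genes *Acvr1b*, *Acvr1c*, *Acvr2a* and *Acvr2b*. The choice was made with the levels of these genes in the same 8 mice already known, and *Inhbb* and *Acvr1c* stand at its centre. The group difference of these 2 genes is therefore given as a description. Both still enter the counts of genes called, and nothing is read from that. Of the 10 genes, 7 passed the filter on low counts, and *Inhba*, *Inha* and *Mstn* did not. The question behind the sequencing was how BAT differs between Ox1RΔSERT and control mice under clamp conditions.

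The 4 control mice were labelled CTRL, and by the study's breeding scheme they carried floxed Ox1R alleles (Ox1R fl/fl) without Cre. The 4 Ox1RΔSERT mice, labelled Sert-Ox1R, carried the same floxed alleles together with Sert-Cre, in which Slc6a4 regulatory sequence drives the recombinase. The recombination was therefore directed at SERT-expressing cells such as serotonergic neurons, and BAT was not the targeted tissue. Where recombination took place was not tested in these samples. All 8 mice were males on a HFD from week 4 to week 18 of age, and all had received insulin in a hyperinsulinemic-euglycemic clamp before they were decapitated and BAT was taken. Each mouse gave 1 library, and no untreated or unclamped BAT was among the samples.

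Total estimated counts were between 35852708 and 50063339 per mouse, of which 33.6% to 46.8% fell on mitochondrially encoded genes. This share was 33.6%, 34.0% and 36.2% in Ox1RΔSERT mice 11601, 11613 and 11708, under every control mouse (40.0% to 46.8%). In Ox1RΔSERT mouse 11243 it was 44.6%. A count of 3 in a library corresponded to a normalized value (CPM after TMM scaling) of 0.0592 to 0.0951, a floor that covers counting error only. The deleted gene, *Hcrtr1*, had 0 to 5 counts per mouse, which is too few to check the deletion in this tissue. For 8 genes listed as brown adipocyte markers, including *Ucp1* and *Adipoq*, the lowest normalized value of any of them in any mouse was 9.61. With no other tissue among the samples, this shows that they were detected and does not test BAT identity. Ox1RΔSERT mice 11601 and 11708 stood apart from the other 6 mice: on the first principal component, with 52.2% of the variance, they lay at 61.6 and 80.5, and the others between -47.5 and 8.62. Fold changes of the activin genes are therefore also given without these 2 mice, which leaves only mice 11243 and 11613 in the Ox1RΔSERT group.

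Activins are secreted dimers of inhibin beta subunits, encoded by *Inhba* (beta A) and *Inhbb* (beta B) among others. They bind the type II receptors ACVR2A and ACVR2B, which recruit the type I receptors ALK4 (*Acvr1b*) or ALK7 (*Acvr1c*), and the complex phosphorylates SMAD2 and SMAD3, which enter the nucleus with SMAD4. Follistatin (*Fst*) and follistatin-like 3 (*Fstl3*) trap activins outside the cell, and the inhibin alpha subunit (*Inha*) pairs with beta subunits to form inhibins, which occupy type II receptors without activating the pathway. ALK7 is abundant in adipocytes, where it is known to restrain lipolysis, and activin B, the dimer of beta B subunits, is one of its ligands.

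The upstream stretches of the 2 beta subunit genes are shown because these genes had very different levels in BAT. Both are from RefSeq on GRCm38.p6 and run 5′ to 3′ over the 250 bases before the annotated start, with matches to the searched motifs in capitals.
Inhbb: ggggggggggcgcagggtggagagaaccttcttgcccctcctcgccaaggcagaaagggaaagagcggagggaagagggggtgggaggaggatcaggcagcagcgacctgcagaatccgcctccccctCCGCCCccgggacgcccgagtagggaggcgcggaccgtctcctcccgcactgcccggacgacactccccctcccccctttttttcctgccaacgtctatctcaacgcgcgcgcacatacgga
Inhba: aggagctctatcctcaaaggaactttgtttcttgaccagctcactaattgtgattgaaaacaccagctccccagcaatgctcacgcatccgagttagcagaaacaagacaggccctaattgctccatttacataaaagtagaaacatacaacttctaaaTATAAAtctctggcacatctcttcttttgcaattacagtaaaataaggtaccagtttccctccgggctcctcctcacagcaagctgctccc
The *Inhbb* stretch is chr1:119422249-119422498 on the minus strand, directly before a single-transcript gene that spans chr1:119415465-119422248. The *Inhba* stretch is chr13:16011601-16011850 on the plus strand, before a gene that spans chr13:16011851-16031621. The *Inhbb* stretch was 68.0% G or C with 21 CpG pairs, the *Inhba* stretch 43.2% with 3 CpG pairs, and the median of 32851 such stretches was 52.4% with 6. On either strand, 6 motifs were sought: the SMAD box CAGACA, the GC box GGGCGG, the cAMP element TGACGTCA, the palindrome of C/EBP factors TTGCGCAA, the TATA element in its form TATAAA and the CCAAT box. The *Inhbb* stretch held 1 GC box, read on the opposite strand, at position -122 from the start, a motif found in 32.7% of all stretches. The *Inhba* stretch held 1 TATAAA at position -91, a motif found in 12.4% of all stretches. The SMAD box, found in 17.1% of all stretches, was in neither, which says only that these letters are not in these windows. A stretch was found for 9 of the 10 genes, and *Fst* was the one without an entry.

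When the genes were ordered by TPM, which takes transcript length into account, the receptor of adipocytes came first. In control BAT, *Acvr1c* was at 8.16 ± 0.905 TPM (SD, n = 4), above *Acvr2a* at 2.84 ± 0.475 and *Acvr1b* at 2.51 ± 0.962, which did not differ from each other beyond their spread. *Fstl3* at 0.950 ± 0.198 TPM, *Inhbb* at 0.898 ± 0.248 and *Fst* at 0.777 ± 0.424 followed and could not be put in order. *Acvr2b* was lower at 0.235 ± 0.0547 TPM. *Inha* and *Inhba* were close to 0, at 0.0295 ± 0.0105 and 0.0290 ± 0.0280 TPM, so that nearly all beta subunit mRNA of control BAT came from *Inhbb*. In Ox1RΔSERT BAT the order was *Acvr1c* at 7.47 ± 2.11 TPM, *Inhbb* at 4.92 ± 3.49, *Fst* at 4.19 ± 3.96, *Acvr1b* at 4.06 ± 1.06 and *Acvr2a* at 3.15 ± 0.533. *Acvr1c* was above *Acvr1b* and *Acvr2a* in each of the 8 mice, whereas the spread of *Inhbb* and *Fst* in Ox1RΔSERT mice was too wide to place them among the receptors.

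The ligand gene *Inhbb* had a higher mean in Ox1RΔSERT BAT. Its normalized values were 4.73, 3.01, 3.16 and 2.82 in control mice 10684, 11253, 11560 and 11563. In Ox1RΔSERT mice 11243, 11601, 11613 and 11708 they were 4.59, 13.8, 12.8 and 25.3. Of the Ox1RΔSERT mice, 3 lay above every control mouse, and mouse 11243 lay within the control range, so the groups overlapped. The means were 3.43 ± 0.880 and 14.1 ± 8.54 (SD, n = 4 each), a ratio of 4.12, and the log2 fold change was 2.04 with a standard error of 0.45. The 3 high mice stood at 4.01, 3.73 and 7.39 times the control mean, in the order 11601, 11613 and 11708. The values rest on 95 to 181 counts per control mouse and 210 to 1232 per Ox1RΔSERT mouse, far above the floor of 3 counts. The log2 fold change lay between 1.60 and 2.31 with any 1 mouse left out and was 1.35 without mice 11601 and 11708. The latter fit keeps only Ox1RΔSERT mice 11243, at 4.59, and 11613, at 12.8, and of these only mouse 11613 lay above the controls.

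**Figure D1:**
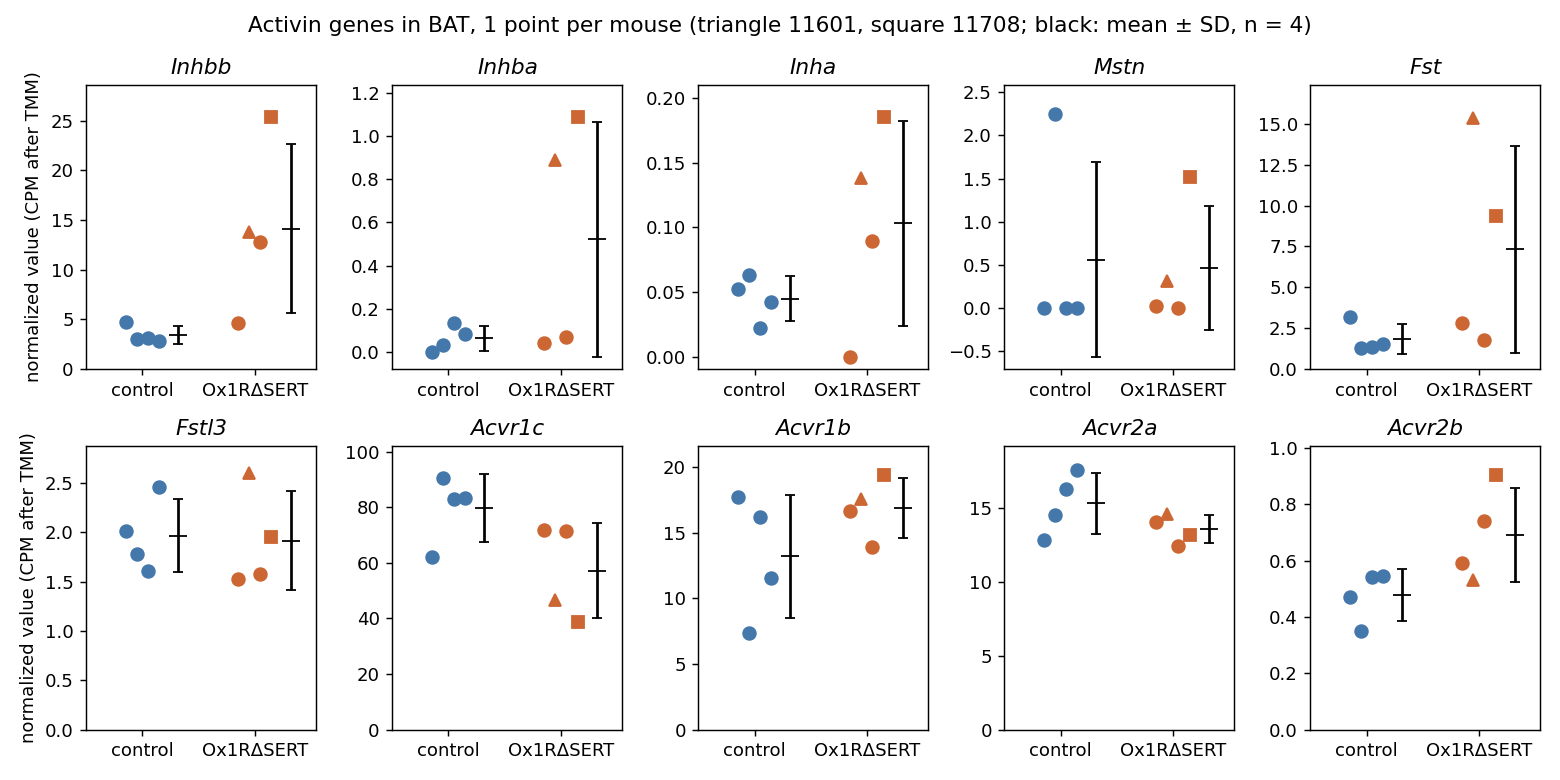
Normalized value (CPM after TMM scaling) of each of the 10 genes, with 1 point per mouse and the mean ± SD of 4 mice in black; triangles mark mouse 11601 and squares mouse 11708. For *Inhbb*, 3 Ox1RΔSERT mice sit between 12.8 and 25.3 and the fourth at 4.59, beside controls at 2.82 to 4.73.

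The beta A subunit gene *Inhba* was at or near the floor in most mice. Control mice 10684, 11253, 11560 and 11563 had 0, 1, 6 and 4 counts, and Ox1RΔSERT mice 11243, 11601, 11613 and 11708 had 2, 45, 3 and 53. As normalized values, mice 11601 and 11708 were at 0.888 and 1.09 and no other mouse exceeded 0.135. *Inhba* was thus measurable above the floor mainly in the 2 mice that stood apart, whereas *Inhbb* was also high in mouse 11613, which had 3 counts of *Inhba*. In DESeq2, which tested *Inhba*, the adjusted p was 0.150.

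*Inha*, needed for inhibins, had 2, 2, 1 and 2 counts in controls, against 0, 7, 4 and 9 in Ox1RΔSERT mice, in the same order. Its highest normalized value was 0.185, so a difference was not detectable with these few counts. *Mstn* encodes myostatin, a ligand of the same type II receptors that limits muscle growth. It had 71 counts in control mouse 11253, 16 in Ox1RΔSERT mouse 11601 and 74 in Ox1RΔSERT mouse 11708, and 0 to 1 in the other 5 mice. These were also the 3 mice with the highest summed level of 8 skeletal muscle genes such as *Acta1* and *Ckm*, at 1548, 175 and 2219 against 2.50 to 43.1 in the others. The part of muscle tissue in the *Mstn* values was not tested.

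Among the antagonists, follistatin mRNA was high in 2 mice. For *Fst*, control mice 10684, 11253, 11560 and 11563 gave normalized values of 3.16, 1.27, 1.33 and 1.51. Ox1RΔSERT mice 11243, 11601, 11613 and 11708 gave 2.84, 15.4, 1.75 and 9.34. Only mice 11601 and 11708 lay above the controls, and the other pair of Ox1RΔSERT mice lay inside the control range. The means were 1.82 ± 0.903 and 7.33 ± 6.33 (SD, n = 4 each), with a log2 fold change of 2.01 ± 0.67 (SE) which edgeR's quasi-likelihood test did not call (adjusted p = 0.316). Without mice 11601 and 11708 the log2 fold change was 0.34. DESeq2 gave *Fst* an adjusted p of 0.0463 with all mice and called it in 3 of the 8 fits that leave out 1 mouse.

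*Fstl3* did not follow *Fst*. In the same order of mice, controls gave normalized values of 2.01, 1.78, 1.60 and 2.46, and Ox1RΔSERT mice gave 1.53, 2.60, 1.57 and 1.95. The groups overlapped over most of their range. The log2 fold change was -0.04 ± 0.24 (SE), not called by edgeR's quasi-likelihood test (adjusted p = 0.953). On log2(TPM + 1) and log2(TPM + 0.1) it was 0.17 and 0.27, under the median of all genes there, which was 0.23 and 0.32. The log2 fold change also turned positive when control mouse 11563 (0.07), Ox1RΔSERT mouse 11243 (0.032) or Ox1RΔSERT mouse 11613 (0.043) was left out. Without mice 11601 and 11708 it was -0.34.

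In TPM, the 2 beta subunit genes were set against the 2 antagonist genes within each mouse. The sum of *Inhba* and *Inhbb* over the sum of *Fst* and *Fstl3* was 0.517, 0.602, 0.648 and 0.436 in control mice 10684, 11253, 11560 and 11563. It was 0.641, 0.509, 2.04 and 1.54 in Ox1RΔSERT mice 11243, 11601, 11613 and 11708. Subunit mRNA exceeded antagonist mRNA only in mice 11613 and 11708. In mouse 11601 both sums were high, at 5.73 and 11.3 TPM, and the ratio stayed within the control range. Since *Inhbb* was chosen for its level in these mice, this ratio was not tested, and mRNA ratios say nothing of the amounts of secreted protein.

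**Figure D2:**
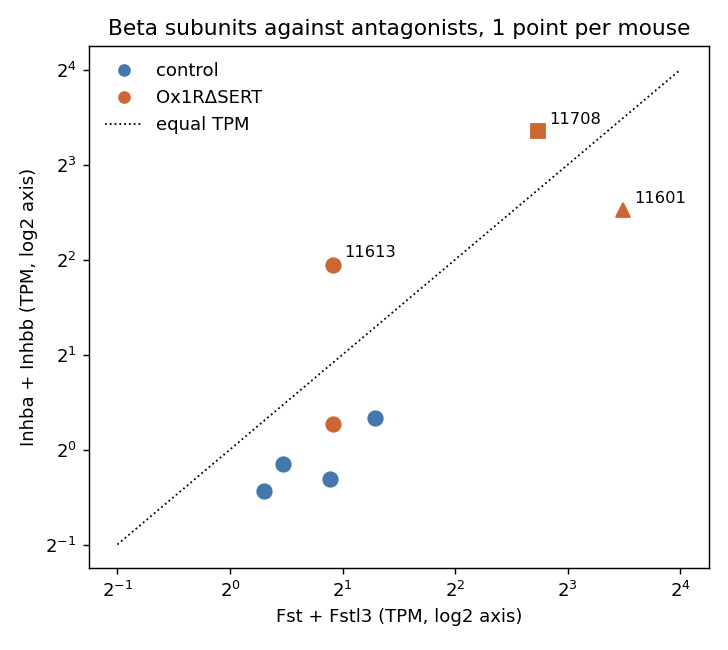
Summed TPM of the beta subunit genes *Inhba* and *Inhbb* (vertical, log2 axis) against summed TPM of the antagonist genes *Fst* and *Fstl3* (horizontal, log2 axis), with 1 point per mouse and a dotted line of equal TPM. Mice 11613 and 11708 lie above the line with ratios of 2.04 and 1.54, and the other 6 mice lie under it.

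The receptor gene *Acvr1c*, which encodes ALK7, had a lower mean in Ox1RΔSERT BAT. Its normalized values were 62.2, 90.5, 83.1 and 83.2 in control mice 10684, 11253, 11560 and 11563. In Ox1RΔSERT mice 11243, 11601, 11613 and 11708 they were 72.0, 46.6, 71.3 and 38.9. Mice 11601 and 11708 lay under every control mouse, and the other pair lay between the lowest and the second-lowest control. The means were 79.7 ± 12.2 and 57.2 ± 17.0 (SD, n = 4 each), so the Ox1RΔSERT mean was 71.7% of the control mean, with a log2 fold change of -0.48 and a standard error of 0.22. Without mice 11601 and 11708 the log2 fold change was -0.15. In TPM, Ox1RΔSERT mice were at 7.21, 6.78, 10.4 and 5.45, against 6.85, 8.41, 8.45 and 8.92 in controls, so that the highest and the lowest of the 8 values were both of Ox1RΔSERT mice. The TPM values as a whole were shifted. On log2(TPM + 1) and log2(TPM + 0.1) the median log2 fold change of all genes was 0.23 and 0.32, and *Acvr1c* was at -0.14 and -0.16.

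The other type I receptor and the type II receptors had differences in both directions. *Acvr1b*, which encodes ALK4, gave normalized values of 17.7, 7.39, 16.2 and 11.5 in controls, against 16.6, 17.6, 13.9 and 19.4 in Ox1RΔSERT mice. The Ox1RΔSERT values fell in or just above the upper part of a wide control range, and the log2 fold change was 0.35 ± 0.25 (SE, adjusted p = 0.503, edgeR's quasi-likelihood test), or 0.21 without mice 11601 and 11708. It was 0.14 without control mouse 11253, the lowest of the controls. *Acvr2a*, the main type II receptor gene here, gave 12.9, 14.6, 16.3 and 17.6 in controls, against 14.1, 14.6, 12.5 and 13.2 in Ox1RΔSERT mice. These groups overlapped, with a log2 fold change of -0.17 ± 0.12 (SE, adjusted p = 0.485, edgeR's quasi-likelihood test), or -0.20 without mice 11601 and 11708. On the 2 TPM scales it was 0.11 and 0.14, under the median of all genes there, which was 0.23 and 0.32.

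*Acvr2b*, the second type II receptor gene, was low, at 0.471, 0.349, 0.542 and 0.546 in controls, against 0.590, 0.533, 0.741 and 0.905 in Ox1RΔSERT mice. Of the latter, 3 lay above all controls, with a log2 fold change of 0.53 ± 0.27 (SE, adjusted p = 0.366, edgeR's quasi-likelihood test), and the value was 0.47 without mice 11601 and 11708. As a share of type I receptor TPM, *Acvr1c* took 76.6% ± 8.70 in control and 64.1% ± 11.2 in Ox1RΔSERT BAT (SD, n = 4 each). *Acvr2a* took 92.4% ± 0.960 and 88.1% ± 2.96 of type II receptor TPM. *Acvr1c* and *Acvr2a* were thus the more abundant type I and type II receptor genes of the 4 in both groups.

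Across all 14489 genes tested, edgeR's quasi-likelihood test called 0% at a threshold of 0.05 on the adjusted p, with a lowest adjusted p of 0.316, and called 0 of the 7 tested activin genes. At an unadjusted p under 0.05 it had 10.2% of all genes higher and 4.96% lower in Ox1RΔSERT mice, and of the 7 activin genes, *Inhbb* and *Fst* higher and 0 lower. DESeq2, the tool the study used, had 1.54% of genes called higher and 0.212% called lower. Of the 9 activin genes to which it gave an adjusted p, 2 were called higher and 0 lower. These were *Fst* and *Inhbb*, and the latter was selected on this call, so nothing is read from it. All of these counts use the contrast on which the genes were chosen and are a description. The groups did not overlap in 5.50% of all tested genes and in 0 of the 7 activin genes. Without both mice 11601 and 11708, DESeq2 called 8 genes of the whole table and 0 activin genes.

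**Figure D3:**
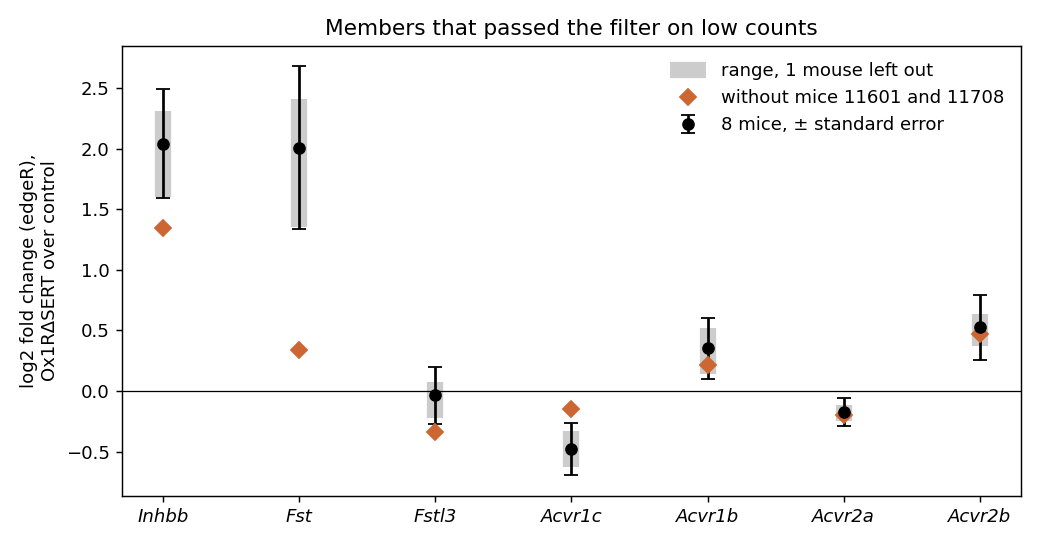
Log2 fold change (edgeR, Ox1RΔSERT over control) of the 7 tested genes with all 8 mice (black, ± standard error), the range over fits with 1 mouse left out (grey) and the value without mice 11601 and 11708 (orange). *Inhbb* goes from 2.04 to 1.35 without these mice, *Fst* from 2.01 to 0.34 and *Acvr1c* from -0.48 to -0.15.

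Markers of other cell types moved with these genes in part of the mice. The summed level of 8 leukocyte and macrophage genes was 111 to 252 in control mice and 183, 900, 197 and 696 in Ox1RΔSERT mice 11243, 11601, 11613 and 11708. All 8 of these genes had a higher mean in Ox1RΔSERT BAT. DESeq2 called 4 of them higher (1.54% of all genes were), and edgeR called 0. Their median log2 fold change was 1.67 with all mice and 0.27 without mice 11601 and 11708. The summed level of 7 fibroblast and preadipocyte genes was 206 to 427 in control mice and 321, 1773, 428 and 903 in the same Ox1RΔSERT mice. All 7 had a higher mean there. DESeq2 called 1 of them higher, and edgeR called 0. Their median log2 fold change was 1.22 with all mice and 0.38 without mice 11601 and 11708. The summed level of 8 brown adipocyte genes was 13034 to 13761 in control mice and 12375, 9225, 11613 and 8537 in the Ox1RΔSERT mice, with all 8 genes at a lower mean. Most of this sum is *Fabp4* and *Ucp1*, and the groups overlapped in each of the 8 genes taken singly. Summed over 5 endothelial genes, the groups overlapped, at 247 to 348 and 238 to 323. No marker of these lists was at 0 in any mouse.

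The antagonist *Fst* was high in mice 11601 and 11708, which were also the high mice for leukocyte and fibroblast markers, and *Acvr1c* was lowest in the same mice, which were also lowest for brown adipocyte markers. In BAT as bulk tissue, fewer cells of a type and less RNA per cell cannot be told apart. *Inhbb* was high in these mice as well, but also in mouse 11613, at 3.73 times the control mean. That mouse had a leukocyte and macrophage sum of 197, inside the control range, with 2 of the 8 genes, *Mrc1* (53.4 against at most 47.7) and *Ptprc* (7.84 against at most 7.67), above every control. Its fibroblast and preadipocyte sum was 428, next to the highest control value of 427, with 2 of the 7 genes, *Col1a1* and *Pi16*, above every control. Its *Fst* was at 0.962 times and its *Acvr1c* at 0.894 times the control mean. Of the 8 brown adipocyte genes, 3 (*Ucp1*, *Fabp4* and *Cox7a1*) were lower there than in any control, 2 (*Cidea* and *Plin1*) were higher than in any control, and the other 3 were inside the control range. The part of cell composition in the *Inhbb*, *Fst* and *Acvr1c* differences was not tested beyond these values.

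**Figure D4:**
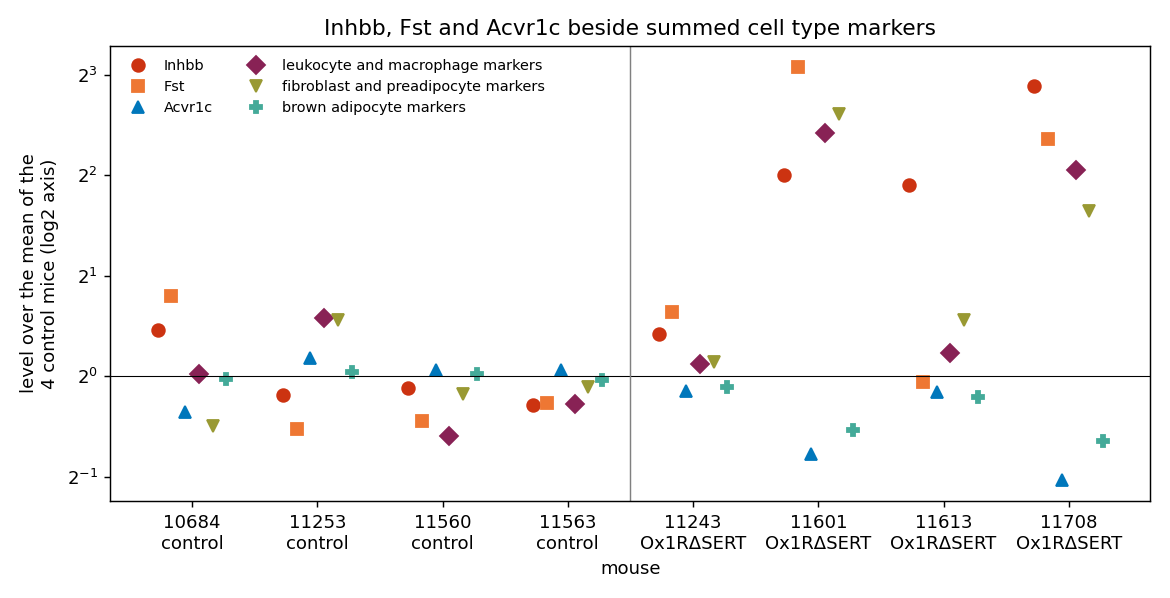
Level in each of the 8 mice over the mean of the 4 control mice (log2 axis) for *Inhbb*, *Fst* and *Acvr1c* and for the summed markers of 3 cell types. In mouse 11613 *Inhbb* is at 3.73 while *Fst* is at 0.962, and in mice 11601 and 11708 *Inhbb*, *Fst* and the leukocyte and fibroblast markers are all high.

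The genes whose pattern over the 8 mice was most like that of *Inhbb* were found among 14426 tested genes with a symbol, by the root mean square difference between centred log2 profiles. They were *Tgm1* (0.309), which encodes a transglutaminase, *Tnfsf14* (0.314), which encodes the cytokine LIGHT, *Ifitm1* (0.373), *Cd14* (0.389), which encodes a lipopolysaccharide co-receptor of myeloid cells, and *Il1b* (0.402), which encodes interleukin-1 beta. *Il1b* was at 0.895, 4.52, 2.63 and 10.5 in Ox1RΔSERT mice 11243, 11601, 11613 and 11708, and no control exceeded 0.915. The same 3 Ox1RΔSERT mice as for *Inhbb* were above the controls, and mouse 11708 was highest for both. Since these genes were picked for their likeness to *Inhbb*, the shared high mice follow from the choice. *Cd14* was at 5.66, 20.4, 8.58 and 27.8 in the Ox1RΔSERT mice and 3.64 to 6.80 in the controls, again with mouse 11613 above the controls.

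For *Acvr1c* the nearest patterns were those of *Apmap* (0.0773), which encodes a membrane protein of adipocytes, *Nmb* (0.0905), which encodes neuromedin B, *Atg4d* (0.0939), an autophagy protease gene, *St3gal5* (0.0975), which encodes the synthase of ganglioside GM3, and *Arl4a* (0.0999). *Apmap* was at 193, 261, 241 and 230 in controls 10684, 11253, 11560 and 11563, against 192, 140, 190 and 118 in Ox1RΔSERT mice 11243, 11601, 11613 and 11708. As for *Acvr1c*, mouse 10684 was the lowest control and mice 11601 and 11708 the lowest of all, which the choice by likeness favours. The likeness is a description over 8 mice that share a group difference and the 2 mice that stood apart.

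The other ligands of the pathway were mostly low in BAT. Of a list of 9, *Gdf1* was not in the table, and *Inhbc*, *Inhbe*, *Gdf3* and *Nodal* did not pass the filter. *Inhbc*, another inhibin beta subunit gene, had 0 counts in each control mouse and 1, 4, 0 and 23 in the Ox1RΔSERT mice. Of the 4 tested ligand genes, 0 were called by either tool with all mice. In edgeR, 3 had an unadjusted p under 0.05 in the higher direction, against 10.2% of all genes. DESeq2 called 2 of the 4 without mouse 11243 and 2 without mouse 11613. In these fits it called 1516 of 16057 and 936 of 15546 genes with an adjusted p. *Tgfb2*, a TGF-beta isoform, had the largest log2 fold change at 1.49 ± 0.61 (SE, adjusted p = 0.321, edgeR's quasi-likelihood test) and *Tgfb3* the smallest at 0.27. *Tgfb2* was at 2.15 and 2.47 in mice 11601 and 11708 and at 0.339 to 0.951 in the other 6 mice. The median of the 4 genes was 0.96 with all mice and 0.06 without mice 11601 and 11708, and the median of all genes was 0.00.

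The remaining receptors and the machinery around them showed small differences, with 0 genes called by edgeR or DESeq2 in 4 lists when all mice were used. Of 7 other receptor genes of the TGF-beta superfamily, log2 fold changes ran from -0.16 for *Bmpr1a*, a BMP type I receptor, to 0.48 for *Tgfbr2*, the TGF-beta type II receptor. Without control mouse 10684, *Tgfbr2* was at 0.95 in edgeR and was called by DESeq2 (adjusted p = 0.00951). Of 6 co-receptors and decoys, 3 were tested, with *Eng* (endoglin) at 0.02 and *Tgfbr3*, which encodes betaglycan and lends inhibins their affinity, at 0.20. The 4 proprotein convertases, which cleave activin precursors, ran from -0.02 for *Pcsk6* to 0.31 for *Pcsk5*. The 11 genes of the SMAD pathway ran from -0.23 for *Skil*, a repressor of SMAD signalling, to 0.46 for *Tgif1*, another repressor, with a median of 0.02. *Tgif1* was at 0.07 without Ox1RΔSERT mouse 11601. By edgeR's quasi-likelihood test, 0 genes of these lists had an unadjusted p under 0.05.

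Genes that SMAD2 and SMAD3 are known to induce were divided. Of 12 tested, 0 were called by edgeR, 1 was called higher by DESeq2 (1.54% of all genes were) and 5 had an unadjusted p under 0.05 in edgeR, all higher (10.2% of all genes were). DESeq2 called 5 of the 12 without mouse 11243 and 5 without mouse 11613. In these fits it called 1516 of 16057 and 936 of 15546 genes with an adjusted p. It called 0 of the 12 without any 1 of mice 11560, 11563, 11601 and 11708, where it called 17, 49, 17 and 19 genes in all. The DESeq2 call was *Tgfbi*, an extracellular matrix gene, with a log2 fold change of 1.62 in edgeR and an adjusted p of 0.0288 in DESeq2. Controls were at 10.4, 14.0, 7.34 and 9.86, and Ox1RΔSERT mice at 13.9, 41.0, 14.9 and 57.7. Mice 11601 and 11708 were far above the others and mouse 11613 just above the controls. *Col1a1*, a fibrillar collagen gene that is also on the fibroblast list, had the largest log2 fold change at 2.38 ± 0.72 (SE, edgeR adjusted p = 0.316, quasi-likelihood test). The smallest was that of *Cdkn1a*, a cell cycle inhibitor gene, at -0.40. *Smad7* and *Skil*, inhibitors that the pathway induces on itself, were at 0.07 and -0.23. The median of the 12 was 0.37, and 0.04 without mice 11601 and 11708.

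Genes of lipolysis, the process that ALK7 is known to restrain in adipocytes, had differences in both directions. Of 9 tested genes, 0 were called by either tool with all mice and 0 reached an unadjusted p under 0.05 by edgeR. Log2 fold changes ran from -0.37 for *Abhd5*, the co-activator of adipose triglyceride lipase, to 0.33 for *Adrb3*, the beta 3 adrenergic receptor of adipocytes. *Adrb3* was highest in Ox1RΔSERT mouse 11613, at a normalized value of 333, and its log2 fold change was 0.03 without that mouse. The lipase genes *Pnpla2* and *Lipe* were at -0.14 and 0.19, and *Pparg* and *Cebpa*, which encode adipocyte transcription factors, at -0.03 and 0.18. *Cebpa* depended on control mouse 10684, without which it was at 0.59 in edgeR and was called by DESeq2 (adjusted p = 0.0128). The median was -0.03 with all mice and 0.25 without mice 11601 and 11708.

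**Figure D5:**
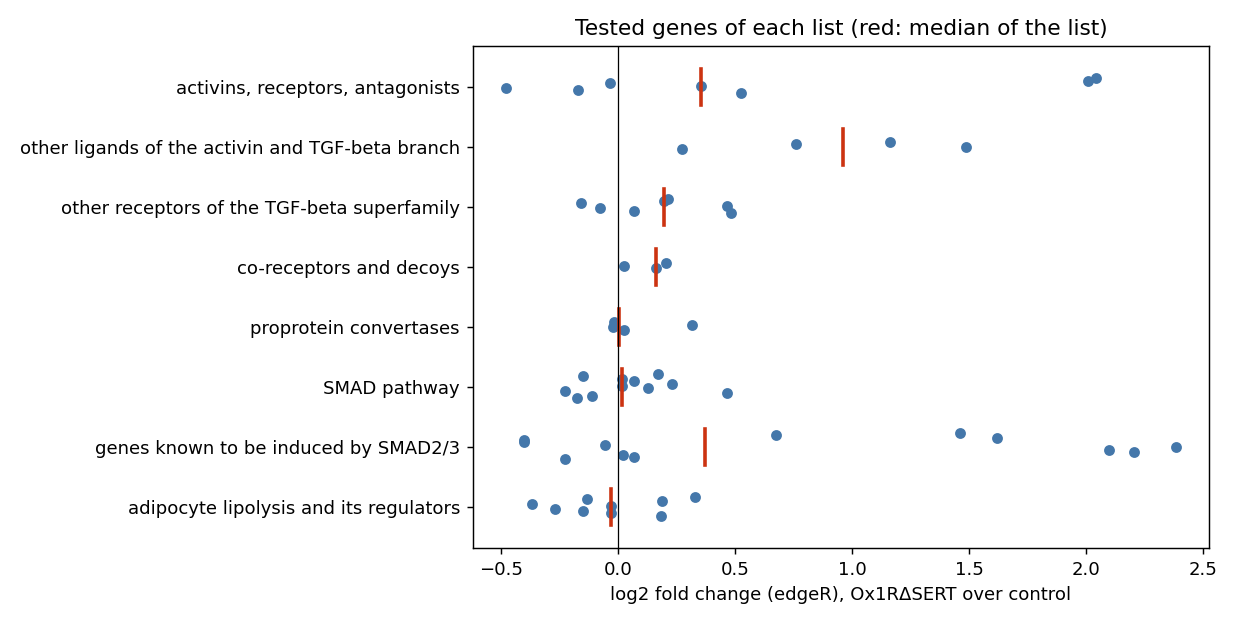
Log2 fold change (edgeR, Ox1RΔSERT over control) of each tested gene, 1 point per gene, in the activin group and in 7 lists around it; red bars are medians. The SMAD pathway genes lie between -0.23 and 0.46, while the known SMAD2/3-induced genes run from -0.40 to 2.38.

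The nearest protein-coding neighbours of *Inhbb* are given as a description, since *Inhbb* was chosen for its own difference. *Ralb*, 48057 bases away on the side of higher coordinates, had means of 33.2 ± 2.87 and 35.7 ± 5.93 in control and Ox1RΔSERT BAT (SD, n = 4 each). *Gli2*, 361846 bases away on the other side, was at 0.221 ± 0.0764 and 0.246 ± 0.0713. Next to *Acvr1c*, which lies at chr2:58267453-58357895, stands *Acvr1*, 30749 bases away, another activin and BMP type I receptor gene. *Acvr1* was at 7.60 ± 1.33 and 8.82 ± 1.47, with a log2 fold change of 0.21 ± 0.17 (SE, adjusted p = 0.555, edgeR's quasi-likelihood test). *Cytip*, 71921 bases away on the other side and known from leukocytes, was at 2.95 ± 0.962 and 6.15 ± 3.24, highest in mice 11601 and 11708. Exons of *Acvr1c*, *Fst*, *Fstl3* and *Acvr2a* overlap genes of the opposite strand by 168, 115, 1157 and 446 bases, and whether the quantification used the strand is not given in the sources used here.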

How the data were processed

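BAT of 4 control and 4 Ox1RΔSERT mice was sequenced by the authors from stranded, poly-A selected libraries and quantified with Salmon 0.14.1 in nf-core/rnaseq 1.4. The submitters' processing notes also name STAR, DESeq2 1.26.0 and the build GRCm38.p6. The authors deposited estimated counts per gene, not normalized, and TPM values, normalized for transcript length and library size. The annotation release and the strand setting are not given in the sources used here. Symbols and positions came from GENCODE M21 (GRCm38), with a symbol for 44118 of 44674 genes. Counts were rounded to whole numbers, and 14489 genes passed filterByExpr. The main comparison was edgeR 4.0.16 (TMM, quasi-likelihood F-test, two-sided, Benjamini-Hochberg over all tested genes, threshold 0.05, common dispersion 0.0988) in R 4.3.3 with no covariates. DESeq2 1.42.0 and limma 3.58.1 on log2(TPM + 1) and log2(TPM + 0.1) were among the alternatives. The fits were also run on simulated counts with known changes, and no result above draws on that run.

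The activin genes, the lists and the cell markers were chosen with earlier results of these data known. Named are all 10 activin genes and, of each list, the genes called by either tool and those with the largest and smallest log2 fold change, besides the neighbours of *Inhbb* and *Acvr1c* and the 5 genes most like each. *Inhbc*, *Mrc1*, *Ptprc*, *Pi16*, *Cidea*, *Cox7a1*, *Smad7*, *Skil*, *Pnpla2*, *Lipe*, *Pparg* and *Cebpa* were added after their values were seen, as were the mice-out fit of DESeq2 and the ratios of TPM. Likeness used log2(normalized value + 0.1). Mouse numbers are those of the sample titles. The labels do not name litters or pairs.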

Additional observations from a re-analysis of the deposited data

Results flagged for a closer look

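In groups of 4 mice, a mouse was singled out when its gap to the nearest other mouse passed Dixon's 95% critical value as a part of the group's range. For normally distributed values chance alone gives this in about 1 of 20 groups. The normalized values used here were not log-transformed and their distribution was not checked, so that rate may not hold. Of 20 groups of activin gene values, 2 met this. *Fst* in control mouse 10684 was at a normalized value of 3.16, above 1.27 to 1.51 in the other 3 controls, with a gap of 0.871 of the range. *Mstn* in control mouse 11253 was at 2.25, against 0 in the other 3 controls, with a gap of 1 of the range, and that mouse also had the highest skeletal muscle marker sum among the controls. With 0 in the other 3, any value above 0 would have given this gap.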

How the results depend on the processing

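edgeR called 0 genes under RLE scaling, no low-count filter, at least 10 counts in every mouse, without mitochondrially encoded genes, with any 1 mouse left out and without mice 11601 and 11708, and limma on TPM also called 0. DESeq2 called 265 genes, 2 of them activin genes, and 8 and 0 without mice 11601 and 11708, a fit chosen after seeing the data. With 1 mouse left out, edgeR and DESeq2 called 0 to 1516 genes in the whole table and 0 to 3 activin genes. DESeq2 calls fell to 17 without control mouse 11560 or Ox1RΔSERT mouse 11601, 19 without 11708 and 49 without control mouse 11563, and were 1516 without 11243 and 936 without 11613; the cause was not tested. *Fst* was called by DESeq2 without control mouse 10684, without 11243 and without 11613. *Inhba* was called only without 11243. On log2(TPM + 1) and log2(TPM + 0.1), the median of all genes was 0.23 and 0.32 instead of 0.00, so values there are to be read against that shift: *Fstl3* turned to 0.17 and 0.27, and *Acvr2a* to 0.11 and 0.14. With 1 mouse left out, *Fstl3* ranged from -0.23 to 0.082 over edgeR and DESeq2. *Acvr1b* and *Acvr2b* kept their direction in all 25 alternatives. No paired analysis was possible because the labels give no pairs or litters: replicate numbers follow sample order only, and although the paper calls the groups litter-mates, which mice share a litter is not given. The low counts of *Inhba*, *Inha* and *Mstn* limit what can be said of them.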
